A study of Homo sapiens with 11 samples.

Results

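The muscle ubiquitin ligases described here are 5 genes, TRIM63, TRIM54, TRIM55, FBXO32 and FBXO40, taken by name from a count table of 19990 genes. All 5 were in the table, and the filter on low counts kept all of them. They were followed in cardiomyocytes derived from the WTC11 line, a widely used reprogrammed human stem cell line (passage 63). Differentiation used the Wnt pathway activator CHIR99021 and then the Wnt inhibitor IWP2, and all wells were afterwards kept in RPMI1640 with B27 and insulin. Wells were collected at Day 30 (4 wells), Day 60 (3 wells) and Day 113 (4 wells), and poly(A) RNA was sequenced. All 11 wells belonged to 1 differentiation of 1 line, so the p-values below measure the spread between wells of that differentiation and no wider spread, and the day of culture cannot be told apart from the collection.

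A ubiquitin ligase chooses the protein to which ubiquitin is attached, and a chain of ubiquitin sends that protein to the proteasome. Striated muscle uses a small set of its own ligases for this, bound to the sarcomere or to the Z-disc, and TRIM63 and FBXO32 are best known as the genes that rise in muscle wasting. In the heart the same ligases take part in the turnover of myosin, troponin and other contractile proteins.

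The members fall into 2 families. TRIM63 (MuRF1), TRIM55 (MuRF2) and TRIM54 (MuRF3) are RING-finger proteins that bind titin or microtubules and one another. FBXO32 (atrogin-1, or MAFbx) and FBXO40 are F-box proteins, the substrate-reading subunits of SCF ligases, which also hold SKP1, CUL1 and RBX1. In GENCODE 29 on GRCh38, TRIM63 lies on chromosome 1 from 26051304 to 26068436 on the minus strand, and TRIM54 on chromosome 2 from 27282392 to 27307439 on the plus strand. FBXO40 lies on chromosome 3 from 121593119 to 121630295 on the plus strand. All 5 are protein-coding, and their merged exons hold 2573 bases for TRIM63, 2764 for TRIM54, 3081 for TRIM55, 7395 for FBXO32 and 5929 for FBXO40. TRIM54 shares 40 exon bases (1.45% of its own) with UCN on the opposite strand, so a small part of its counts could belong to UCN, since no source used here says whether counting used strand.

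Promoter windows of RefSeq (GRCh38.p14, the 250 bases before the start) were matched for 3 of the 5 members. No window was matched for TRIM55 and FBXO32, and that of FBXO40 lies in an exon of a coding transcript. The remaining windows, of the RING-finger genes TRIM63 and TRIM54, are shown. They are written 5′ to 3′ on the gene's own strand, without the bases that GENCODE places in an exon of a coding transcript. TRIM63 is the stretch chr1:26067634-26067880 on the minus strand, which lies inside an exon of a noncoding processed transcript, and TRIM54 is chr2:27282179-27282391 on the plus strand. Capitals mark matches to a glucocorticoid receptor palindrome or single site, a FOXO core or a TATA box on either strand.
TRIM63: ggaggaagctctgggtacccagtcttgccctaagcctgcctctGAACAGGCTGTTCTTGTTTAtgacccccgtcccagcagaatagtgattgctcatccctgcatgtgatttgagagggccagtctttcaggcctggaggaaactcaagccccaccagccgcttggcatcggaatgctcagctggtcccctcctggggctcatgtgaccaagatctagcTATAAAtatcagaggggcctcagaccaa
TRIM54: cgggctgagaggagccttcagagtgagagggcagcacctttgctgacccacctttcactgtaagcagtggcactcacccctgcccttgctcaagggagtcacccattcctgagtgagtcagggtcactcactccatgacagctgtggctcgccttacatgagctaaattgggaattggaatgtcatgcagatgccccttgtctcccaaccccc

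The TRIM63 window held the palindrome read by the glucocorticoid receptor, GAACA and TGTTC set 3 bases apart, from 207 to 195 bases before the start. The same letters occurred in 8 of 35116 promoters of this length (0.0228%). TGTTCT, a single receptor site, overlapped its 3′ end from 199 to 194 and is common, in 12.4% of promoters. The FOXO core TGTTTA began next to it, from 193 to 188, and was present in 10.99% of promoters. The longer form TGTTTAC, in 2.98% of promoters, was in none of the 3 windows. TATAAA stood from 31 to 26 in TRIM63 and from 188 to 183 in FBXO40, and in 10.7% of promoters. All 250 bases of the FBXO40 window lie in an exon of a coding transcript, so it is not printed and its matches are matches within an exon. The TRIM54 window held none of these, and an E-box (CANNTG) was in all 3 windows and in 61.8% of promoters. Both strands were searched, and a match is a run of letters, not a measured binding site.

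The libraries held 24.1 to 34.5 M counts (M, 1000000 counts) and 18796 to 19533 detected genes each. Values are given as CPM, counts per 1000000 counts after TMM scaling. The 12 cardiomyocyte markers, among them TNNT2, ACTN2 and MYH6, were all in the table and summed to 38395 to 53484 CPM at Day 30, 48209 to 56353 at Day 60 and 43645 to 49427 at Day 113. MYH7 was the largest part of this sum, with means of 15412, 14522 and 9277 CPM by day. Of the 12, 3 rose and 2 fell over the course (41.7%, against 34.5% of all genes), so their sum mixes genes that moved both ways. Of 10 skeletal muscle markers 5 were in the table, and they summed to 14.7 to 19.7, 17.8 to 21.1 and 1.62 to 4.25 CPM. TNNT3 (means 7.05, 8.00 and 1.01 CPM by day) and ACTN3 (8.97, 9.10 and 0.54) carried this sum. The myogenic factors did not follow it: MYOD1 had means of 0, 0.27 and 0.53 CPM and MYOG of 0.036, 0.84 and 0.36. Both were at no more than 1.12 CPM in any well. The 9 fibroblast and epicardial markers summed to 3358 to 7713, 2087 to 3594 and 5477 to 13082 CPM, and the 7 endothelial markers to 72.3 to 105, 46.4 to 73.3 and 215 to 829 CPM. The 4 of 5 smooth muscle markers in the table summed to 489 to 736, 619 to 846 and 778 to 1214 CPM. The fibroblast sum was carried by the collagens, while PDGFRA was at 144, 96.5 and 32.3 CPM by day. The 8 hepatic and endodermal markers summed to 1870 to 3210, 912 to 1063 and 1094 to 1800 CPM, most of it the keratins KRT8 and KRT18, while all 8 were lower at Day 60 than at Day 30 and AFP went from 499.8 to 5.95 and 1.45 CPM and ALB from 308 to 31.6 and 15.7. In such bulk samples fewer cells of a type and less RNA per cell cannot be told apart, and the part of these other cells in the results below was not tested.

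Of the RING-finger genes TRIM63, TRIM55 and TRIM54, TRIM63 was higher at both later days than at Day 30, and the other two were not called in any pair of days. TRIM63, which marks contractile proteins such as troponin I and myosin heavy chain, was at 207, 186, 175 and 211 CPM in the 4 Day 30 wells. It stood at 304, 304 and 276 CPM at Day 60, and at 296, 379, 301 and 274 CPM at Day 113. All 7 later wells were above all 4 Day 30 wells, and the Day 60 and Day 113 wells overlapped. The means were 195 ± 17.4 (SD, n = 4), 294 ± 16.3 (SD, n = 3) and 312 ± 45.6 CPM (SD, n = 4).

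TRIM63 rose 1.51-fold from Day 30 to Day 60 (log2 fold change 0.60 ± 0.11 SE, adjusted p = 0.0032 by edgeR's quasi-likelihood test). Over the whole course it rose 1.60-fold (0.68 ± 0.11, adjusted p = 0.00014). Between Day 60 and Day 113 the difference was 0.09 ± 0.11 (adjusted p = 0.65), and it turned to -0.019 without Day 113 replicate 2, the well with 379 CPM. The rise thus lay between Day 30 and Day 60 as measured, but the test of whether the intervals differed did not pass (-0.51, adjusted p = 0.12); it passed without that well (-0.62, adjusted p = 0.019).

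TRIM55, on chromosome 8 from 66126896 to 66175487 (GRCh38, plus strand), was the member that moved least. TRIM55, a partner of TRIM63 on titin that has been tied to signalling from titin to the nucleus, was at 177, 153, 135 and 195 CPM at Day 30. It was at 174, 154 and 167 CPM at Day 60 and at 153, 159, 151 and 155 CPM at Day 113. The wells of every pair of days overlapped, and the means were 165 ± 26.3, 165 ± 9.80 and 155 ± 3.32 CPM (SD, n = 4, 3 and 4).

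None of its differences passed. The log2 fold changes of TRIM55 were 0.00086 ± 0.11 for Day 60 against Day 30, -0.09 ± 0.11 for Day 113 against Day 60 and -0.09 ± 0.10 for Day 113 against Day 30 (adjusted p = 1, 0.60 and 0.54 by edgeR's quasi-likelihood test). The spread of TRIM55 also varied by day: its coefficient of variation between wells was 16.0% at Day 30 and 2.14% at Day 113. Of 2358 genes of like level, 3.52% had a larger coefficient at Day 30 and 99.2% had a larger one at Day 113.

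TRIM54, the MuRF that stabilises microtubules and lies at the Z-disc, was at 90.4, 82.1, 86.0 and 102 CPM at Day 30. It was at 137, 111 and 113 CPM at Day 60 and at 84.2, 147, 90.4 and 88.9 CPM at Day 113. Every Day 60 well was above every Day 30 well, which held for 10.7% of all genes, and at Day 113 replicate 2 alone stood above the Day 60 range. The means were 90.0 ± 8.42, 121 ± 14.2 and 103 ± 29.9 CPM (SD, n = 4, 3 and 4).

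TRIM54 was not called in any pair of days. Its log2 fold change was 0.42 ± 0.16 for Day 60 against Day 30 (adjusted p = 0.12), -0.23 ± 0.16 for Day 113 against Day 60 (adjusted p = 0.34) and 0.19 ± 0.15 over the whole course (adjusted p = 0.37). These calls depended on Day 113 replicate 2. Without it the rise to Day 60 passed (0.42, adjusted p = 0.0094), and the fall from Day 60 to Day 113 was -0.46 (adjusted p = 0.005).

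FBXO32 and FBXO40 were highest at Day 60 on average. FBXO32 lies on chromosome 8 from 123497889 to 123541206 (GRCh38, minus strand). FBXO32, the F-box protein that in heart directs calcineurin and the endosomal protein CHMP2B to degradation, was at 56.4, 48.3, 46.7 and 52.2 CPM at Day 30. It was at 96.9, 75.3 and 60.5 CPM at Day 60 and at 59.1, 46.6, 64.2 and 64.8 CPM at Day 113. The Day 60 wells were all above the Day 30 wells, but the lowest of them, replicate 3, was within the Day 113 range.

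FBXO32 rose 1.52-fold from Day 30 to Day 60 (means 50.9 ± 4.35 and 77.6 ± 18.3 CPM, log2 fold change 0.61 ± 0.15, adjusted p = 0.015). From Day 60 to Day 113 the difference was -0.40 ± 0.15 (adjusted p = 0.06), to 58.7 ± 8.45 CPM, and Day 113 and Day 30 differed by 0.21 ± 0.14 (adjusted p = 0.28). The call for Day 60 rested on replicate 1 of that day, the well with 96.9 CPM: without it the log2 fold change was 0.44 (adjusted p = 0.097). The fall from Day 60 passed without Day 60 replicate 3, the well with 60.5 CPM (-0.56, adjusted p = 0.018), and was -0.22 without replicate 1 (adjusted p = 0.35).

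FBXO40, a muscle F-box protein known for the turnover of the insulin receptor substrate IRS1, was at 69.4, 50.8, 46.2 and 73.6 CPM at Day 30. It was at 113, 92.9 and 96.4 CPM at Day 60 and at 98.8, 64.4, 68.7 and 66.8 CPM at Day 113. The Day 60 wells were all above the Day 30 wells. At Day 113, 3 wells were within the Day 30 range and replicate 1 was within the Day 60 range.

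FBXO40 rose 1.68-fold from Day 30 to Day 60 (means 60.0 ± 13.5 and 101 ± 10.7 CPM, log2 fold change 0.75 ± 0.17, adjusted p = 0.01). From Day 60 to Day 113 the difference was -0.43 ± 0.17 (adjusted p = 0.081), to 74.7 ± 16.2 CPM, and Day 113 and Day 30 differed by 0.32 ± 0.16 (adjusted p = 0.14). Without Day 113 replicate 1, the well with 98.8 CPM, the fall from Day 60 passed (-0.60, adjusted p = 0.01). Without Day 60 replicate 1 the rise to Day 60 was 0.68 (adjusted p = 0.052).

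**Figure D1:**
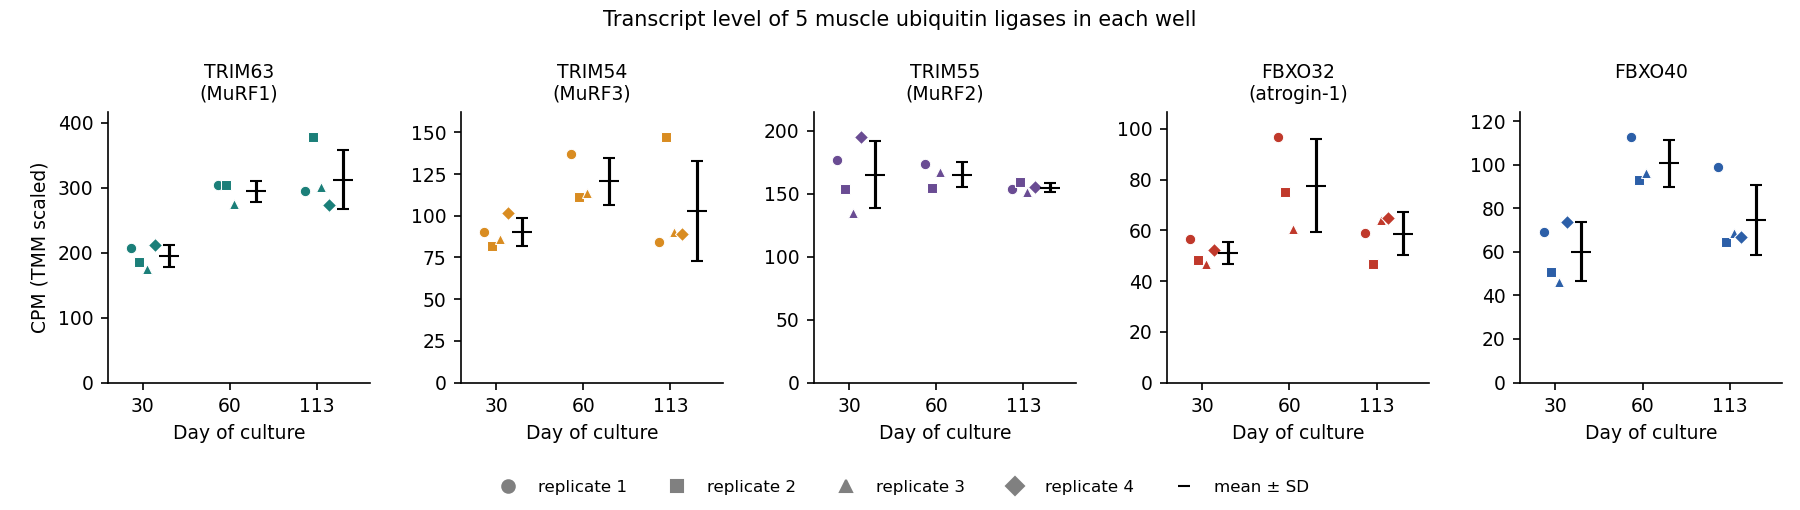
Level of each ligase in CPM (vertical axes from 0, a scale of its own for each gene) in every well by day of culture, with the symbol giving the replicate number and the bar the mean ± SD of 4, 3 and 4 wells. TRIM63 stayed above its Day 30 wells at both later days, FBXO32 and FBXO40 were highest on average at Day 60, and TRIM54 at Day 113 had 1 well at 147 CPM above 3 wells at 84.2 to 90.4 CPM.

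Of the 5 members, 3 rose from Day 30 to Day 60 (TRIM63, FBXO32 and FBXO40) and none fell, where 10.3% of all genes were called, 4.39% higher and 5.91% lower. Between Day 60 and Day 113 none of the 5 was called, where 24.0% of all genes were. By edgeR's test 2 members (FBXO32 and FBXO40) had an unadjusted p under 0.05 there, and DESeq2 called both, with log2 fold changes of -0.42 and -0.45. Over the whole course 1 of 5 was called, TRIM63, against 34.5% of all genes, and its wells alone did not overlap, against 35.1% of all genes. The median log2 fold change of the 5 was 0.60, -0.23 and 0.21 in the 3 comparisons, where the median of all genes was -0.011, 0.0016 and -0.018. The comparisons share wells, so these counts are not independent of each other. The share of counts on RNR2, the mitochondrial rRNA, was highest at Day 60: it was 1.94% to 2.05% at Day 30, 2.69% to 3.59% at Day 60 and 1.81% to 2.25% at Day 113. Day 60 replicate 3 had the highest share, the fewest detected genes (18796) and a place apart on the second principal component (-143.8, against -59.8 and -48.3 for the other wells of that day). Without that well TRIM63, FBXO32 and FBXO40 were still called higher at Day 60 (0.67, 0.78 and 0.80). The part of the rRNA share was not tested.

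The change in the second interval differed from that in the first for 2 of 5 members, both negative, against 9.34% of all genes (4.97% positive and 4.38% negative). The second interval's log2 fold change minus the first was -1.01 ± 0.26 for FBXO32 (adjusted p = 0.022) and -1.18 ± 0.30 for FBXO40 (adjusted p = 0.021). It was -0.65 for TRIM54 (adjusted p = 0.17) and -0.10 for TRIM55 (adjusted p = 0.83). A difference between any of the days was called for 3 of 5 members, TRIM63 (adjusted p = 0.00027), FBXO40 (adjusted p = 0.0082) and FBXO32 (adjusted p = 0.011), against 37.1% of all genes. Without Day 60 replicate 1 the interval test was lost for both F-box genes (FBXO32 -0.65, adjusted p = 0.19, and FBXO40 -1.03, adjusted p = 0.12). It was also lost for FBXO32 without Day 60 replicate 2 (adjusted p = 0.055) and for FBXO40 without Day 60 replicate 3 (adjusted p = 0.063).

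**Figure D2:**
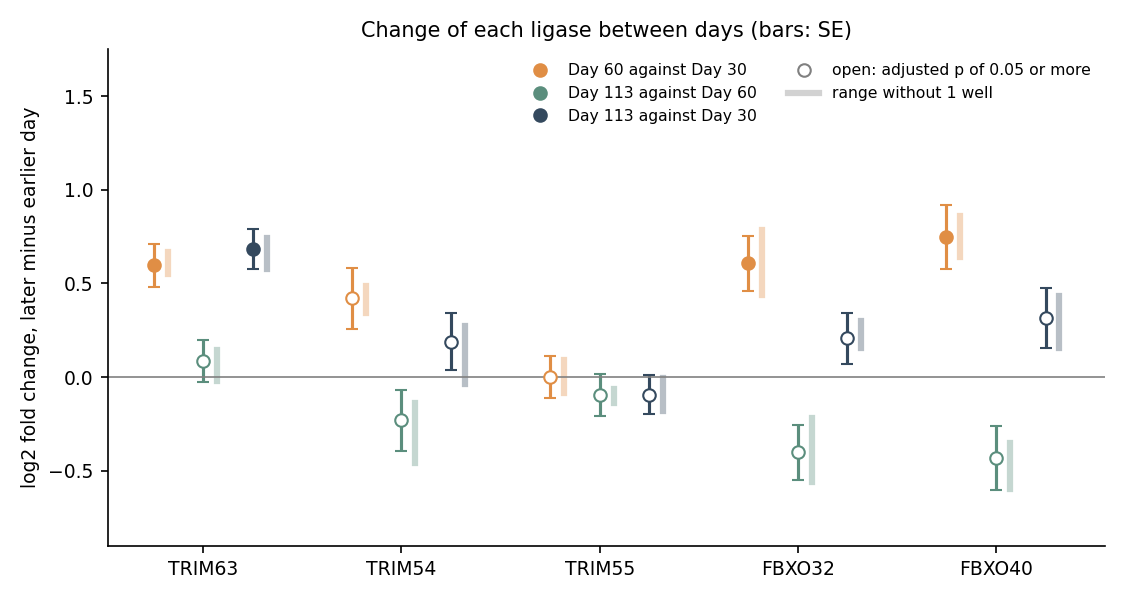
Log2 fold change of each ligase (later minus earlier day) with its standard error, for the 3 pairs of days; filled points had an adjusted p under 0.05, and the pale bar beside each point spans the values with each single well left out. The 3 filled points of Day 60 against Day 30 are TRIM63, FBXO32 and FBXO40, all 5 points of Day 113 against Day 60 are open, and TRIM63 alone is filled for the whole course.

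Divided by exon length, so that genes can be set beside each other, TRIM63 was the most abundant member on every day and the F-box genes the least. TRIM63 held 75.7 CPM per kb of merged exons at Day 30, 114 at Day 60 and 121 at Day 113. TRIM55 held 53.5, 53.6 and 50.2, and TRIM54 held 32.6, 43.6 and 37.2. FBXO40 held 10.1, 17.0 and 12.6, and FBXO32 held 6.88, 10.5 and 7.94. The order of the means was the same on each day, but with the longest transcript in place of merged exons TRIM54 (59.5 CPM per kb) passed TRIM55 (56.6) at Day 60, so those neighbours have no settled order there.

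Within the RING-finger trio the balance moved towards TRIM63. Its share of the summed CPM per kb of the 3 genes was 46.9% ± 1.21 at Day 30, 54.1% ± 2.20 at Day 60 and 58.1% ± 1.22 at Day 113 (SD, n = 4, 3 and 4). The wells of the 3 days ran from 45.1% to 47.6%, from 52.7% to 56.6% and from 56.3% to 58.9%, so the Day 30 wells stood apart and the later days overlapped at their edges. The share of TRIM55 was 33.0% ± 1.73, 25.3% ± 1.38 and 24.3% ± 2.71, and that of TRIM54 was 20.2% ± 1.15, 20.6% ± 1.41 and 17.6% ± 2.47.

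Within single wells the log2 ratio of TRIM63 to TRIM55 was 0.25 ± 0.11 at Day 30, 0.84 ± 0.13 at Day 60 and 1.00 ± 0.18 at Day 113. Its 4 Day 30 values, 0.12 to 0.37, did not meet the later ones, which began at 0.72. A ratio within a well shows unequal change of the 2 genes, and it does not depend on how wells were scaled. The ratio of FBXO32 to FBXO40 overlapped across all days, at -0.21 ± 0.23, -0.40 ± 0.24 and -0.34 ± 0.33.

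**Figure D3:**
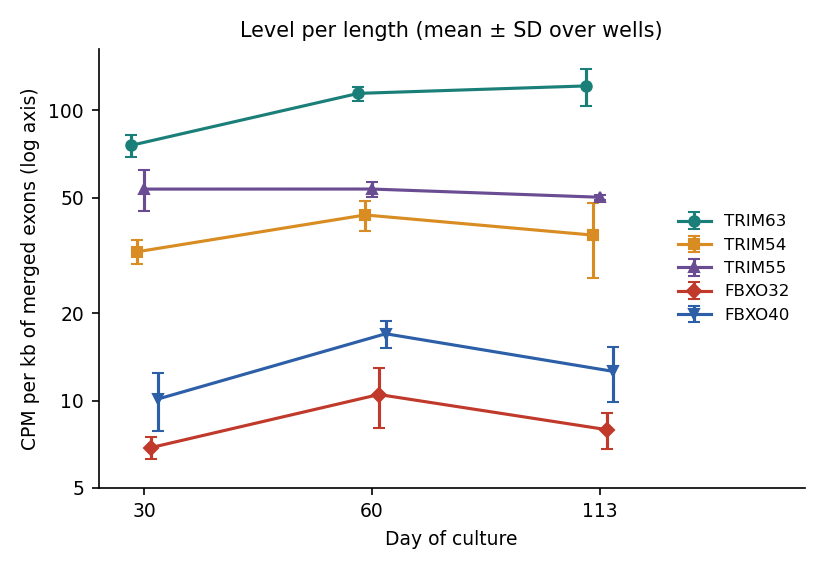
Mean CPM per kb of merged exons (log axis) of each ligase by day of culture, with the SD over 4, 3 and 4 wells. TRIM63 is uppermost on each day (75.7, 114 and 121), TRIM55 is level between 50.2 and 53.6, and FBXO40 and FBXO32 lie lowest with their largest mean at Day 60.

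Wells of one day differed in the sum of the cardiomyocyte markers, and several members moved with it at Day 30. The marker sum was 53484 CPM in replicate 4, 52241 in replicate 1, 43928 in replicate 2 and 38395 in replicate 3. TRIM63, TRIM55 and FBXO40 had the same order of the 4 wells. Per 100000 counts of the markers, TRIM55 held 338 to 365 counts at Day 30 (351 ± 10.9), 323 ± 16.4 at Day 60 and 335 ± 14.8 at Day 113. On the same measure TRIM63 held 417 ± 28.2, 577 ± 47.2 and 674 ± 62.5, with all later wells above all Day 30 wells.

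FBXO40 per 100000 marker counts was 127 ± 10.3, 197 ± 3.81 and 162 ± 36.5. FBXO32 was 109 ± 9.82, 150 ± 24.8 and 128 ± 24.0. With the markers as the scale the rise to Day 60 was 0.47 for TRIM63 (adjusted p = 0.032), 0.63 for FBXO40 (adjusted p = 0.015) and 0.46 for FBXO32 (adjusted p = 0.10). That scale moved the median of all genes by -0.15 on the log2 scale. Relative to that median the 3 values were 0.62, 0.79 and 0.61.

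Day 113 replicate 2 stood apart from the other wells of its day, and over all genes its deviations ran with transcript length. It had the highest TRIM63 (121% of the day mean), TRIM54 (143%) and, by little, TRIM55 (103%) of its day. It had the lowest FBXO32 (79.4%) and, by little, FBXO40 (86.2%, against 89.5% in replicate 4). The RING-finger genes have 2573 to 3081 exon bases and the F-box genes have 5929 and 7395. Over all genes of at least 5 CPM with a known length (97.1%), those under 3 kb lay 0.23 above and those over 5 kb 0.080 below their Day 113 average in this well, as median log2 deviations. The gap between the long and the short genes was -0.31 there and ran from -0.079 to 0.19 in the other 10 wells.

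With a trend on length removed from every well, an alternative chosen after seeing the data, TRIM63 was level between Day 60 and Day 113 (-0.0074, adjusted p = 0.96). In the same fit TRIM54 rose to Day 60 (0.44, adjusted p = 0.037), and both F-box genes fell from Day 60 to Day 113 (FBXO32 -0.41, adjusted p = 0.036, and FBXO40 -0.47, adjusted p = 0.044). The part of RNA quality in this pattern was not tested.

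**Figure D4:**
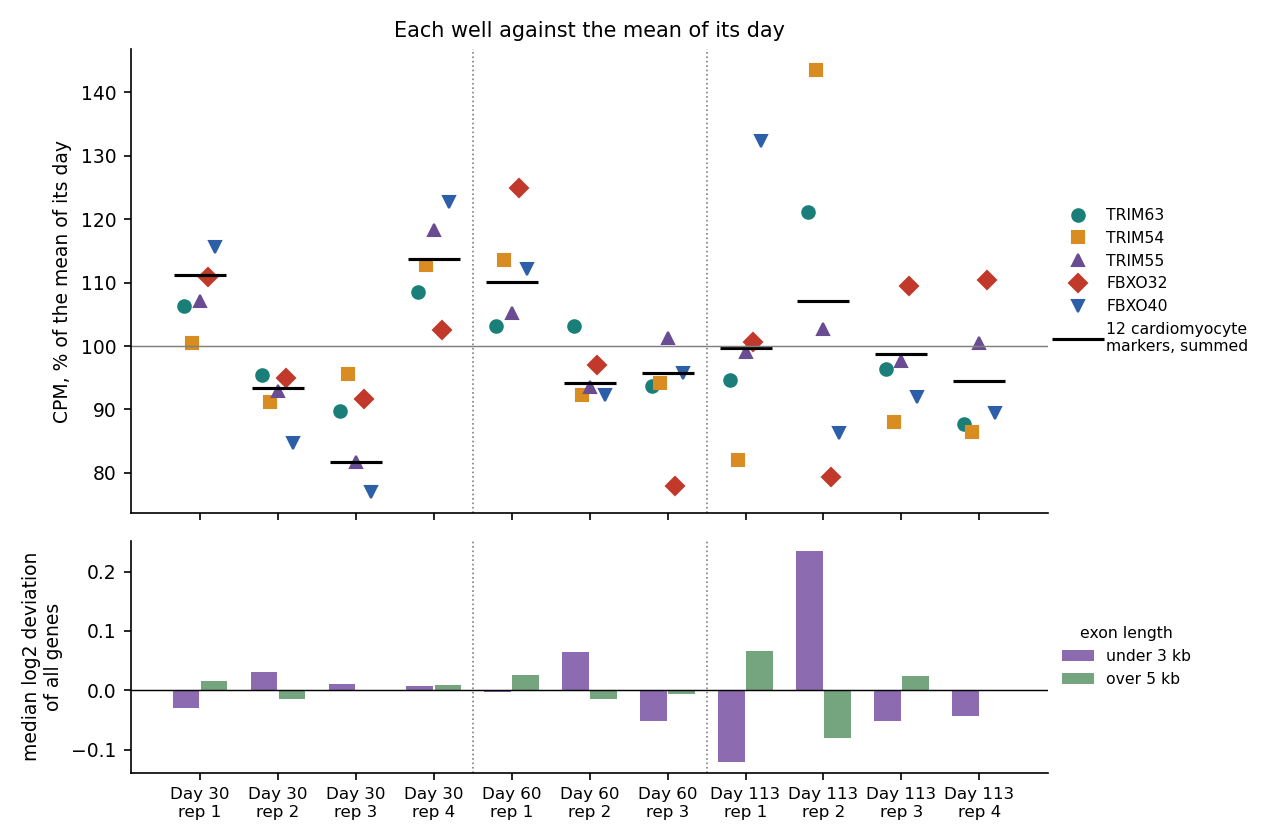
Upper panel, CPM of each ligase in each well as a percent of the mean of its day, with black bars for the summed cardiomyocyte markers; lower panel, median log2 deviation from the day's average of all genes with exons under 3 kb and over 5 kb. At Day 30 TRIM63, TRIM55 and FBXO40 order the wells as the markers do, and Day 113 replicate 2 has TRIM54 highest, FBXO32 lowest and the widest gap between short and long genes (0.23 and -0.080).

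The genes whose levels ran most alike to each member over the 11 wells were taken by Pearson r of log2 CPM among 11952 genes, as a description. For TRIM63 these were FABP3 (r = 0.974), the heart fatty acid binding protein, CRYAB (0.971), a small heat shock protein of the Z-disc, and DES (0.967), the intermediate filament desmin. For TRIM55 they were COLQ (0.891), HEPH (0.881) and SMYD1 (0.855), the last a methyltransferase of striated muscle. For FBXO32 they were SFRP1 (0.929), LRRC14B (0.913) and ASB11 (0.911), and for FBXO40 LOC101927789 (0.929), PARM1 (0.919) and GEM (0.918). For TRIM54 they were PNCK (0.917), TIMM44 (0.916) and SMIM4 (0.903).

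Over the 11 wells FBXO32 and FBXO40 had the highest r among the members (0.771), and 0.753% of genes were closer to FBXO32 than FBXO40 was. TRIM63 and TRIM55 had an r of 0.043. The r of TRIM63 with FBXO32 was 0.449 over 11 wells and 0.807 without Day 113 replicate 2, and with FBXO40 it was 0.604 and 0.816. Without that well FBXO32 and FBXO40 had an r of 0.776, below both of these and below TRIM54 with FBXO32 (0.785), so the order of the pairs turned on 1 well. The points share depth, day and cell makeup, so a high r marks a like course over the days and no more.

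Most genes of the proteasome's core and cap were called higher at Day 113. None was called between Day 30 and Day 60, where 10.3% of all genes were, and in lists of 13 and 18 genes 0 is not far from that share. Of 13 genes of the proteasome's 20S core, which cuts the tagged protein, none was called between Day 30 and Day 60, 8 rose and none fell from Day 60 to Day 113, and 9 rose over the whole course. Of 18 genes of the 19S cap, which receives and unfolds ubiquitin-tagged proteins, the counts were 0, 13 higher and 14 higher, again with none lower. For the 2 later comparisons that is 61.5% and 69.2% of the core and 72.2% and 77.8% of the cap, against 24.0% and 34.5% of all genes. The median log2 fold changes were -0.05, 0.41 and 0.38 for the core and 0.04, 0.43 and 0.47 for the cap, beside all-gene medians of -0.011, 0.0016 and -0.018. PSMD1, a scaffold of the cap, went from 88.8 and 90.8 to 147 CPM (log2 fold change 0.73 ± 0.09 over the course, adjusted p = 1.2e-05). PSMC2, an ATPase of the cap, rose by 0.73 ± 0.10 (adjusted p = 3.5e-05), and PSMB7, a catalytic subunit of the core, rose by 0.60 ± 0.12 from Day 60 to Day 113 (adjusted p = 0.0017). Scaled to the cardiomyocyte markers, 1 of 13 core genes and 11 of 18 cap genes were called over the whole course, so the count for the core depends on the scale. The core count from Day 60 to Day 113 also fell from 8 to 5 without Day 60 replicate 1 and to 4 without Day 60 replicate 3. Genes with exons under 3 kb as a whole had medians of 0.10 from Day 60 to Day 113 and 0.11 over the course, and Day 113 replicate 2 carried the short-gene deviation described above. With the length trend removed 8 core genes rose from Day 60 to Day 113 and 9 over the course, and without Day 113 replicate 2 they were 8 and 8.

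Of the inducible proteasome genes 3 of 5 were in the table. Of these 1 rose to Day 60, 2 rose from Day 60 to Day 113 and 2 rose over the course. That is 33.3%, 66.7% and 66.7% of only 3 genes, against 10.3%, 24.0% and 34.5% of all genes. The count for Day 60 to Day 113 ran from 1 to 3 with a well left out. PSMB10, a catalytic subunit of the immunoproteasome, was at 11.02, 18.4 and 28.0 CPM by day. It rose 0.74 ± 0.22 to Day 60 (adjusted p = 0.047), a call that was lost in 8 of the 11 fits with a well left out, and 1.34 ± 0.21 over the course (adjusted p = 0.00015). PSME2, of the PA28 activator, rose 0.63 ± 0.13 (adjusted p = 0.0016). The endothelial, fibroblast and smooth muscle marker sums also reached their highest values at Day 113, and their part in these rises was not tested.

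The F-box genes act with SKP1, CUL1 and RBX1. Of 8 SCF and cullin partners none was called between Day 30 and Day 60, where 10.3% of all genes were. In a list of 8 genes 0 is near that share. From Day 60 to Day 113 1 rose, and over the whole course 3 rose and 1 fell (12.5% and 50% of the list, against 24.0% and 34.5% of all genes). RBX1, the RING subunit, rose 0.48 ± 0.12 (adjusted p = 0.0064), and CUL1, the scaffold, rose 0.40 ± 0.08 (adjusted p = 0.0015). Their Day 113 means were 106 and 142 CPM, against 76.2 and 108 at Day 30.

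Of 12 E2 enzymes, which hand ubiquitin to the ligases, 2 fell to Day 60, 3 rose from Day 60 to Day 113, and 3 rose and 2 fell over the course. That is 16.7%, 25% and 41.7% of the list, against 10.3%, 24.0% and 34.5% of all genes, and the count of 2 at Day 60 was 1 in 9 of the 11 fits with a well left out. UBE2N, which builds chains used in signalling, rose 0.97 ± 0.09 (51.7 CPM at Day 30 and 102 at Day 113, adjusted p = 1e-06), and UBE2H fell by 0.50 on the log2 scale (adjusted p = 0.00046). UBE2J1, of the endoplasmic reticulum, was at 75.7, 51.4 and 80.7 CPM by day. It fell by 0.56 to Day 60 (adjusted p = 0.0089, and 0.053 without Day 60 replicate 1) and rose 0.65 ± 0.13 from there to Day 113 (adjusted p = 0.0015).

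Among 17 other muscle E3 ligases in the table, 1 rose to Day 60, 2 rose and 4 fell from Day 60 to Day 113, and 4 rose and 3 fell over the course. That is 5.88%, 35.3% and 41.2% of the list, against 10.3%, 24.0% and 34.5% of all genes. The count of 1 at Day 60 ran from 0 to 2 with a well left out. KLHL41, a cullin-3 adaptor of the sarcomere, fell by 1.08 on the log2 scale (248, 217 and 118 CPM by day, adjusted p = 1.9e-06). TRAF6, a RING ligase of immune signalling that also acts in muscle wasting, fell by 0.53 (adjusted p = 0.0018). CBLB and FBXL22, the latter an F-box protein of the Z-disc, rose 0.50 ± 0.12 (adjusted p = 0.0044) and 0.51 ± 0.14 (adjusted p = 0.0099). Of 8 deubiquitinases none was called to Day 60, where 10.3% of all genes were, and 1 rose and 1 fell in each of the other comparisons. These were 25% of the list in each, against 24.0% and 34.5% of all genes. With a well left out the counts of rises ran from 1 to 2 and those of falls from 0 to 2. UCHL3 rose 0.87 ± 0.20 from Day 60 to Day 113 (adjusted p = 0.0059), and UCHL5, which sits on the 19S cap, rose 0.45 ± 0.11 over the course (adjusted p = 0.0044, and 0.062 with the markers as the scale).

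**Figure D5:**
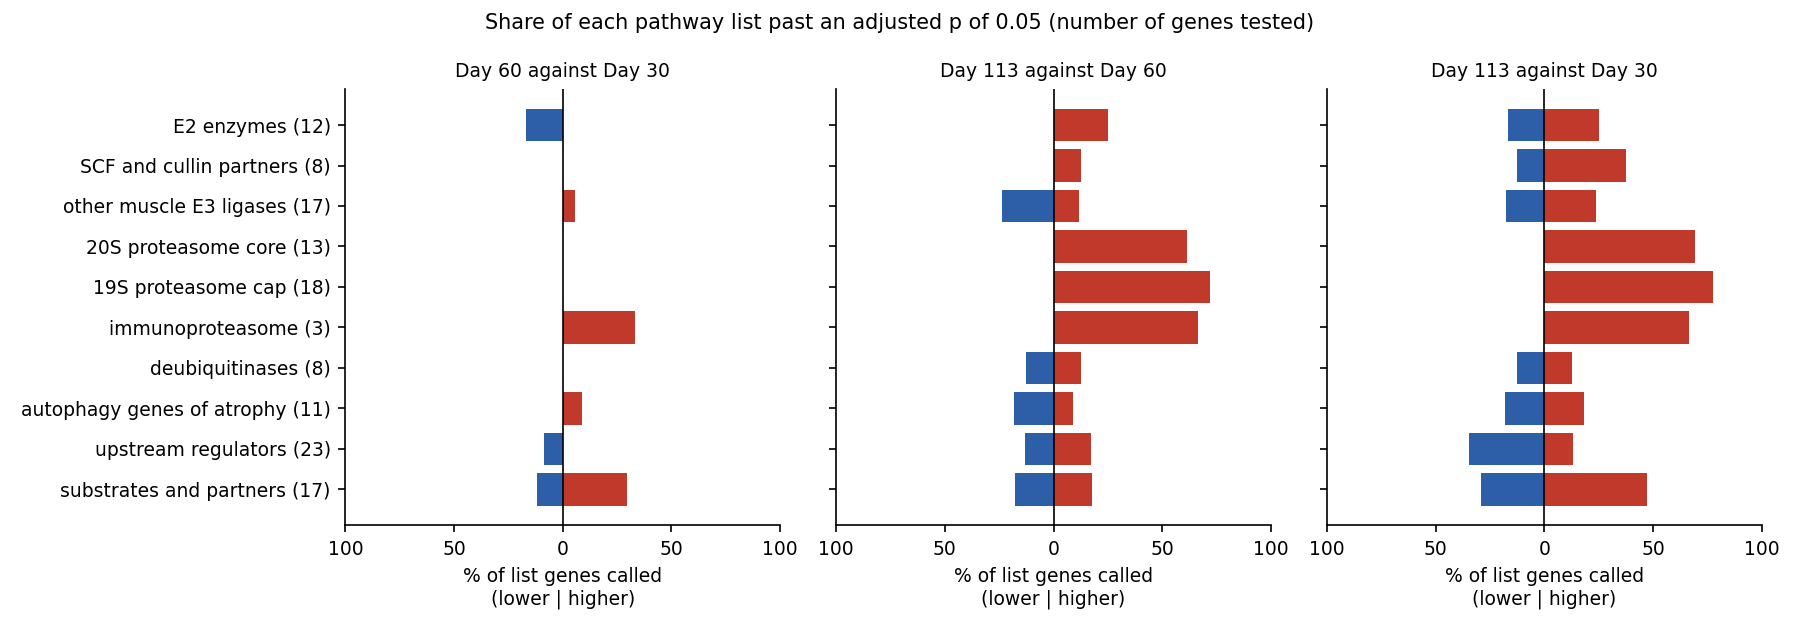
Share of each list's tested genes (number in brackets) past an adjusted p of 0.05, higher to the right and lower to the left of 0, for the 3 pairs of days. The 20S core and the 19S cap have no called gene for Day 60 against Day 30, where 10.3% of all genes were called. For Day 113 against Day 60 they have 8 of 13 and 13 of 18 higher genes, where 24.0% of all genes were called.

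Of 23 regulators that lie upstream of the ligases none rose and 2 fell to Day 60, 4 rose and 3 fell from Day 60 to Day 113, and 3 rose and 8 fell over the course. That is 8.70%, 30.4% and 47.8% of the list, against 10.3%, 24.0% and 34.5% of all genes, and the count of 2 at Day 60 ran from 0 to 3 with a well left out. The glucocorticoid receptor gene NR3C1, whose protein reads the palindrome seen in the TRIM63 window, stood at 35.7, 42.4 and 85.1 CPM by day. It rose 1.01 ± 0.13 from Day 60 to Day 113 (adjusted p = 6.1e-05) and 1.25 ± 0.12 over the course (adjusted p = 9.3e-07). Its difference between Day 30 and Day 60 was 0.25 ± 0.12 (adjusted p = 0.26). Whether the receptor or any other regulator of this list acted on the ligases was not tested.

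The FOXO factors, which are held out of the nucleus by insulin signalling and drive TRIM63 and FBXO32 in wasting muscle, were not called between Day 30 and Day 60. FOXO1 was at 17.1, 13.1 and 20.96 CPM by day, and it rose 0.68 ± 0.19 from Day 60 to Day 113 (adjusted p = 0.016). With Day 60 replicate 1 left out the adjusted p was 0.053, and with replicate 2 left out it was 0.077. FOXO3 was at 70.7, 65.1 and 56.1 CPM and was not called in any pair (over the course -0.33, adjusted p = 0.051). FOXO4 fell by 0.39 on the log2 scale over the course (adjusted p = 0.013), which was lost with the markers as the scale (adjusted p = 0.067).

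Along the insulin pathway, IGF1R, the receptor of IGF1, fell by 1.01 on the log2 scale over the course (190, 183 and 94.1 CPM by day, adjusted p = 5e-06). IRS1, the adaptor whose protein FBXO40 is known to mark, fell by 0.84 to Day 60 (53.3 to 29.7 CPM, adjusted p = 0.0038) and by 1.14 over the course (adjusted p = 3.2e-05). These are transcript levels, and the turnover of IRS1 protein was not measured. SRF, a transcription factor of muscle genes, rose 0.90 ± 0.13 (adjusted p = 7.7e-05), and NFKB1 rose 0.92 ± 0.13 from Day 60 to Day 113 (adjusted p = 0.00018). PPARGC1A, a coactivator of mitochondrial genes, fell by 0.95 from Day 60 to Day 113 (adjusted p = 0.0048), and CEBPB fell by 0.81 over the course (adjusted p = 0.0016).

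Of 17 genes for substrates and partners of the ligases, 5 rose and 2 fell to Day 60, 3 rose and 3 fell from Day 60 to Day 113, and 8 rose and 5 fell over the course. These were 41.2%, 35.3% and 76.5% of the list, against 10.3%, 24.0% and 34.5% of all genes. The median over the course was 0.018, since members moved both ways, and the 2 that fell to Day 60 became 1 in 7 of the 11 fits with a well left out. TNNI3, adult cardiac troponin I and a known substrate of TRIM63, rose 1.62 ± 0.14 to Day 60 (78.1 to 240 CPM, adjusted p = 5.8e-06). MYL2, the ventricular myosin light chain, rose 1.48 ± 0.21 to Day 60 (adjusted p = 0.00039) and 2.32 ± 0.21 over the course (adjusted p = 6e-07). DES rose 1.44 ± 0.15 to Day 60 (12.0 to 32.6 CPM, adjusted p = 1.8e-05). MYH7, a myosin heavy chain, fell by 0.73 over the course (adjusted p = 0.00052), and CHMP2B rose 0.64 ± 0.11 from Day 60 to Day 113 (adjusted p = 0.00048). TTN, the titin that the RING-finger members bind, was not called in any pair of days (0.29, -0.28 and 0.02, adjusted p = 0.54, 0.46 and 0.96). All of these are transcript levels, and the turnover of the proteins was not measured.

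Autophagy is the other route by which muscle degrades protein, and some of its genes answer to the same FOXO factors. Of 11 such genes 1 rose to Day 60, 1 rose and 2 fell from Day 60 to Day 113, and 2 rose and 2 fell over the course (9.09%, 27.3% and 36.4% of the list, near the shares of all genes). With a well left out the last 2 counts ran from 1 to 3 and from 1 to 4. BNIP3, a mitophagy receptor, fell by 0.73 from Day 60 to Day 113 (777 to 468 CPM, adjusted p = 0.00037), and ULK1, the kinase that starts autophagy, fell by 0.34 over the course (adjusted p = 0.0085), a call lost with the markers as the scale (adjusted p = 0.089).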

How the data were processed

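The authors deposited whole-number read counts per gene symbol, with no normalization, for 11 poly(A) libraries. A second table of theirs holds TPM. Per the submitters' processing notes, STAR 2.5.3a, featureCounts 2.0.3 and hg38 were used. The gene lengths behind the deposited TPM are not given in the sources used here. The length implied by count over TPM had a median Spearman rho of -0.00048 between wells (55 pairs, 13727 genes), so TPM served only as an alternative.

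Counts were tested with edgeR 4.0.16 (R 4.3.3; quasi-likelihood F-test, TMM, filterByExpr minimum count 10, which removed 0 genes), 11 wells in one fit on day, with Benjamini-Hochberg adjustment over 19990 genes (threshold 0.05). Standard errors are the log2 fold change over the root of F. TMM factors were 0.966 to 1.04. In simulated counts for Day 60 against Day 30 (19990 genes), 28.4% of 1.5-fold, 70.1% of 2-fold and 81.8% of 4-fold changes were called. These were set in 67, 67 and 66 genes, with all others level, and 8 unchanged genes were called. In the data 2060 genes were called, so the Benjamini-Hochberg cutoff differed and these shares do not give the power for the members. Wells of one day differed beyond sampling noise (chi-square per degree of freedom 11.4 to 84.0). Alternatives changed scaling, tool (limma 3.58.1, DESeq2 1.42.0), filter, samples, block, unit, threshold and length trend, or left out a well.

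Members and lists were chosen with earlier results of these data known. Per list and comparison, up to 2 called genes of each direction with the largest changes and at least 5 CPM were eligible to be named. Of these, calls that leaving out 1 well ended are given only within the counts, a choice made after seeing the values. The exceptions are PSMB10 and UBE2J1 to Day 60, which are given with that limit. A list gene that a result turns on (the FOXO genes, DES, TTN, the SCF subunits) could also be named. One list fixed with the others is not reported here.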

Additional observations from a re-analysis of the deposited data

Results flagged for a closer look

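In groups of 4 wells a well was listed here when its gap to the nearest other well exceeded Dixon's 95% critical value. TRIM54 in Day 113 replicate 2 was at 147 CPM, above the other wells at 84.2 to 90.4 CPM. FBXO40 in Day 113 replicate 1 was at 98.8 CPM, above the others at 64.4 to 68.7 CPM. These were 2 of 78 groups of wells over 39 genes. The genes were the members and the list genes with an examined call that no single left-out well ended. Such a choice disfavours genes with an outlying well, so the count is not set against a rate.

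The change from Day 60 to Day 113 differed from that from Day 30 to Day 60 (edgeR's quasi-likelihood test of the second minus the first, adjusted p under 0.05) for 15 of these genes, where 9.34% of all genes differed. Most of these genes were named for a large called change, so the count is not set against that share. The difference no longer passed without Day 60 replicate 1 or 2 for FBXO32, nor without Day 60 replicate 1 or 3 for FBXO40. The difference was negative, with the second interval lower than the first, for FBXO32 (-1.01), FBXO40 (-1.18), KLHL41 (-0.69), IGF1R (-0.91), TNNI3 (-1.31), BNIP3 (-1.12) and DES (-0.99). It was positive for UBE2N (0.69), UBE2J1 (1.21), PSMB7 (0.78), PSMD1 (0.66), NR3C1 (0.76), NFKB1 (1.02), CHMP2B (0.64) and UCHL3 (1.38).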

How the results depend on the processing

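The first-interval rise of TRIM63 was called in every setting on counts, with any single well left out (0.55 to 0.67) and with the markers as the scale. Scaling to cardiomyocyte markers shifted the all-gene median by -0.15, 0.15 and -0.014 and the share of higher calls from 42.6% to 26.0%, 53.7% to 71.6% and 50.2% to 48.8%. It gave FBXO32 0.46 to Day 60 (adjusted p = 0.10), interval differences of -0.70 for FBXO32 and -0.91 for FBXO40 (adjusted p = 0.16 and 0.054, 0 members called), and TRIM55 -0.12, 0.054 and, between intervals, 0.17. Library totals gave TRIM55 -0.00015 to Day 60. TRIM54 to Day 60 passed in a fit of those 2 days (0.44, adjusted p = 0.0075). From Day 60 to Day 113, FBXO32 passed with upper-quartile scaling (-0.46), DESeq2 (-0.42) and a filter of 1 CPM in 3 wells (-0.42, 1 member called). FBXO40 passed with upper-quartile scaling (-0.50) and DESeq2 (-0.45), so 2 members were called in each. The length trend gave 0.44 for TRIM54 to Day 60; -0.0074, -0.41 and -0.47 for TRIM63, FBXO32 and FBXO40 in the second interval (2 members); and interval differences of -0.62 and -0.78 for TRIM63 and TRIM54 (4 members). The cause was not tested.

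At a threshold of 0.01, 937, 2545 and 4552 genes were called in the 3 pairs of days, 618 between intervals and 4800 over any days, with 1 member to Day 60 and 0 between intervals. With the replicate number as a block, FBXO32 and FBXO40 were called from Day 60 to Day 113 (-0.42 and -0.48, 2 members) and FBXO40 over the course (0.32, 2 members). Same-numbered wells correlated at 0.019 to 0.057 in their deviations, all positive, and wells of different number at -0.063 to 0.039. What wells of one number share was not tested.

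The deposited TPM, with lengths that differ between wells, gave values below with log2(TPM + 1), then with log2(TPM + 0.1). To Day 60 they were -0.80 and -0.79 for TRIM63, -0.95 and -0.97 for TRIM55, 1.60 and 1.63 for FBXO32, and -0.24 and -0.24 for FBXO40. From Day 60 to Day 113 they were 0.59 and 0.62 for TRIM54, 1.08 and 1.11 for TRIM55, and 0.73 and 0.78 for FBXO40. Over the course they were 1.90 and 1.95 for TRIM63, 0.13 and 0.15 for TRIM55, and -0.72 and -0.76 for FBXO32. Between intervals they were 3.51 and 3.53 for TRIM63, 2.03 and 2.08 for TRIM55, -3.93 and -4.02 for FBXO32, and 0.97 and 1.02 for FBXO40. Members called were 0 in every comparison; genes called were 0 in each with + 1 (unadjusted, 1168 to Day 60), and 10, 0, 39, 1 and 27 with + 0.1. TPM was run for members and gene counts only.

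With 1 well left out, values ran as follows for the first interval, the second interval, the whole course and the difference between intervals. TRIM63: 0.55 to 0.67, -0.019 to 0.14, 0.58 to 0.74 and -0.64 to -0.45. TRIM54: 0.34 to 0.49, -0.46 to -0.14, -0.035 to 0.27 and -0.88 to -0.48. TRIM55: -0.084 to 0.091, -0.14 to -0.064, -0.18 to -0.0030 and -0.19 to -0.011. FBXO32: 0.44 to 0.78, -0.56 to -0.22, 0.16 to 0.30 and -1.34 to -0.65. FBXO40: 0.64 to 0.86, -0.60 to -0.35, 0.15 to 0.43 and -1.34 to -1.03. Members called ran from 1 to 4, 0 to 1, 1 to 1 and 0 to 4, with 2 to 4 over any days. Genes called ran from 1220 to 2618, 3317 to 4735, 5657 to 6977 and 643 to 2221, with 6361 to 7427 over any days. The first of these fell to 1323, 1259 and 1220 without Day 30 replicate 2, Day 60 replicate 1 and Day 60 replicate 3, and the interval count to 643 and 774 without Day 60 replicates 1 and 3. Of 72 calls of list genes examined, 48 held with every well left out in turn and 42 in every setting on counts. The threshold of 0.01 was not among the settings for these calls.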

Other observations

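The spread between wells of one day differed among the ligases. TRIM54 had a coefficient of variation of 29.1% at Day 113, where 3.43% of 3501 genes of like level had a larger one. FBXO32 had 23.6% at Day 60 (2.75% of 4724 genes larger), and FBXO40 had 22.5% at Day 30 (1.498% of 4273 genes larger). TRIM63 stayed between 5.53% and 14.6% on the 3 days, where 27.4% to 71.2% of 1307 genes of like level had a larger value.

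Between the families, the log2 count ratio of TRIM63 to FBXO32 was 1.94 ± 0.061 at Day 30, 1.95 ± 0.28 at Day 60 and 2.41 ± 0.42 at Day 113 (SD, n = 4, 3 and 4). The ratio of TRIM63 to FBXO40 was 1.72 ± 0.20, 1.55 ± 0.14 and 2.08 ± 0.40. The ratio of TRIM55 to FBXO40 was 1.47 ± 0.12 at Day 30, with wells from 1.35 to 1.59, and 0.72 ± 0.087 at Day 60, with wells from 0.62 to 0.79. At Day 113 it was 1.07 ± 0.30, with wells from 0.63 to 1.30, so the Day 60 wells overlapped those of Day 113 and not those of Day 30.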
